A study of Mus musculus musculus x Mus musculus castaneus with 12 samples.

Results

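The 10 genes described here mark the passage of pluripotent cells from the naive to the formative and primed state, which in the embryo corresponds to the epiblast around implantation. They are *Fgf5*, *Otx2*, *Pou3f1*, *Zic2*, *Zic5*, *Sox3*, *Sall2*, *Vrtn*, *Utf1* and *Sox4*, taken by gene symbol out of the 24346 genes counted in each sample. Naive ES cells resemble the inner cell mass of the blastocyst and hold genes such as *Klf4*, *Tbx3* and *Esrrb*. On the way to the primed state these genes are shut down, the signal *Fgf5* and the transcription factors OTX2 and POU3F1 (OCT6) come up, and the enhancers used in the naive state are exchanged. KDM6A (UTX), encoded on the X chromosome, removes methyl groups from lysine 27 of histone H3, a repressive mark that covers many developmental genes in ES cells. The question addressed was how these 10 genes changed in cells without *Kdm6a*, in each clone and in each of the reciprocal crosses, and from which parental allele they were read.

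The data are RNA-seq profiles of 12 samples of ES cells from F1 hybrids between C57BL/6J (BL6) and *Mus castaneus* (cast), with a BL6 mother in BC and a cast mother in CB. In BC there were 2 male wt samples, 3 male *Kdm6a* KO clones called ΔE1, ΔE3 and ΔP4, and 2 female wt samples. In CB, all male, there were 2 wt samples and 3 KO clones, of which ΔE2.5 and ΔE2.7 are exonic and ΔP2.1 is a promoter deletion. Each KO sample was another clone, edited with CRISPR/Cas9 to remove either *Kdm6a* exons (ΔE) or the promoter region together with exons 1 and 2 (ΔP). ΔE1 and ΔE3 came from 1 editing event and also share a deletion of *Sh3kbp1*, *Map3k15* and *Pdha1*, so the 3 BC clones stand for 2 events. The CB wt line carries an actin-GFP transgene. All lines were grown in serum with LIF on fibroblast feeders, which were reduced by plating on gelatin before harvest. The depth was 68457338 to 89070402 fragments in BC samples, and lower in CB samples with 49975599 to 53407103. As the samples are bulk RNA, fewer cells that express a gene and less RNA per cell cannot be told apart. The replicates of a wt line are separate libraries, and p-values that rest on them measure the spread between these libraries, which was narrow. The spread was narrowest in CB, where 12.8% of genes differed between both replicates past the 95% point of counting noise, against 44.1% in male BC.

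The clones were made with 2 pairs of guides, shown because they define what each KO clone lacks. The capitals mark the PAM, the 3 bases next to the target that Cas9 needs.
ΔE left: gaaacctcacgaacccgaaaAGG
ΔE right: tagcattatctgcataccagAGG
ΔP left: ggacactgcatgtttgatggAGG
ΔP right: agctacatactccaaaggagAGG
In the mm10 build, *Kdm6a* spans positions 18162575 to 18279936 of the X chromosome (plus strand). The left exonic guide targets chrX:18163390-18163409 in exon 2, on the minus strand, and the right one chrX:18208733-18208752 in exon 4, so that the pair spans 45363 bases from the start of the left to the end of the right target. The promoter guides target chrX:18160528-18160547, upstream of the gene, and chrX:18164295-18164314 in an intron, and span 3787 bases in the same way. In TPM, which is fragments per length of transcript scaled to the same total in every sample, *Kdm6a* was at 49.8 and 51.3 in male BC wt, and at 11.6, 13.5 and 0.0441 in ΔE1, ΔE3 and ΔP4. The CB wt values were 51.0 and 51.7 TPM, those of ΔE2.5, ΔE2.7 and ΔP2.1 were 2.07, 7.28 and 0.0364 TPM. The level in female BC wt was 65.0 and 65.1 TPM. The levels thus went with the labels, and fragments on exons outside the deletion still count in the exonic clones.

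The 10 genes lie on 7 chromosomes. *Fgf5*, a secreted growth factor, lies on chromosome 5 from 98254184 to 98277030. *Otx2*, a homeobox factor of the epiblast and the forebrain, lies on chromosome 14 from 48657677 to 48673819, and *Pou3f1*, a POU factor, on chromosome 4 from 124656807 to 124660655. The zinc finger factors *Zic5* (chromosome 14 from 122456795 to 122465677) and *Zic2* (122475435 to 122479852) are neighbours with 9757 bases between them, and lie on opposite strands. *Sox3* (X chromosome from 60891366 to 60893430) and *Sox4* (chromosome 13 from 28948919 to 28953713) encode SOX factors. *Sall2*, a zinc finger factor of the spalt family, lies on chromosome 14 from 52311172 to 52328762. *Vrtn*, a factor known for its part in setting the number of thoracic vertebrae, lies on chromosome 12 from 84641019 to 84651455. *Utf1*, a chromatin-bound protein of ES cells, lies on chromosome 7 from 139943789 to 139945112.

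Several of these genes have close relatives, so it matters whether a read of 75 bases can be placed on one of them alone. In the GENCODE transcripts of the same build, no window of 75 bases of *Fgf5*, *Otx2*, *Zic2*, *Sox3*, *Sall2*, *Vrtn* or *Utf1* occurred in the transcript of another gene, on either strand. The longest identical coding runs were 48 bases between *Sox4* and *Sox11*, 45 bases between *Sox3* and *Sox1* and 38 bases between *Pou3f1* and *Pou3f2*, all shorter than a read. The following 2 are printed to show how far the relatives are alike.
Sox4 and Sox11: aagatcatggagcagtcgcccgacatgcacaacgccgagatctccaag
Pou3f1 and Pou3f2: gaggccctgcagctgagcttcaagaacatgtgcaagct
The counts of *Sox4*, *Pou3f1* and *Zic5* are less certain. Of the windows of *Sox4*, 53.8% also occurred in *Gm26735*, a lincRNA on the opposite strand, 6.81% of those of *Pou3f1* in the antisense gene *Gm2164*, and 4.16% of those of *Zic5* in *Gm12241*. The library kit does not mark the strand, so such fragments of *Sox4* and *Gm26735*, or of *Pou3f1* and *Gm2164*, cannot be told apart. *Gm12241* does not overlap *Zic5*, and a read within a window shared by both has the same sequence in either gene. *Otx2* is overlapped by *Otx2os1* on the other strand, which was assigned between 1 and 18 fragments per sample, against 1012 to 5370 for *Otx2*.

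All 10 genes were detected in the male cells, beside core and naive pluripotency genes. In male BC wt *Pou5f1* had 2823 and 2781 TPM and *Nanog* 201 and 228 TPM, and the means of the 14 naive genes ran from 6.99 TPM (*Tbx3*) to 352 TPM (*Klf2*), so the naive and the formative genes were read from the same cultures. Among the 10, *Utf1* stood far above the rest, with a mean of 1168 ± 94.2 TPM (SD, n = 2) in male BC wt. It was followed by *Pou3f1* with 91.2 ± 6.70 TPM, *Zic2* with 73.3 ± 2.21 TPM, *Otx2* with 66.1 ± 3.46 TPM and *Sox4* with 63.3 ± 1.56 TPM (each SD, n = 2). *Vrtn* had 32.4 ± 0.108 TPM, *Sall2* 32.1 ± 1.67 TPM, *Sox3* 19.9 ± 0.158 TPM, *Fgf5* 16.7 ± 0.424 TPM and *Zic5* 9.58 ± 0.180 TPM (each SD, n = 2). In this order *Otx2* and *Sox4*, as well as *Vrtn* and *Sall2*, overlapped between replicates, and the other neighbours did not. With the union of exons as length in place of the longest transcript, *Fgf5* had 24.8 TPM and *Pou3f1* 136 TPM in male BC wt. Both kept their places, but *Sox4* (94.1 TPM) then stood above *Zic2* (92.4 TPM), so the order between genes depends on the transcript assumed. In CB wt the order was *Utf1* (897 ± 18.7 TPM), *Pou3f1* (118 ± 0.853 TPM), *Zic2* (102 ± 1.36 TPM) and *Fgf5* (95.4 ± 1.59 TPM, each SD, n = 2), so *Fgf5* moved from the ninth to the fourth place. None of these CB levels overlapped between replicates. By the union of exons, however, *Fgf5* (140 TPM) stood above *Zic2* (126 TPM) in CB wt.

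**Figure D1:**
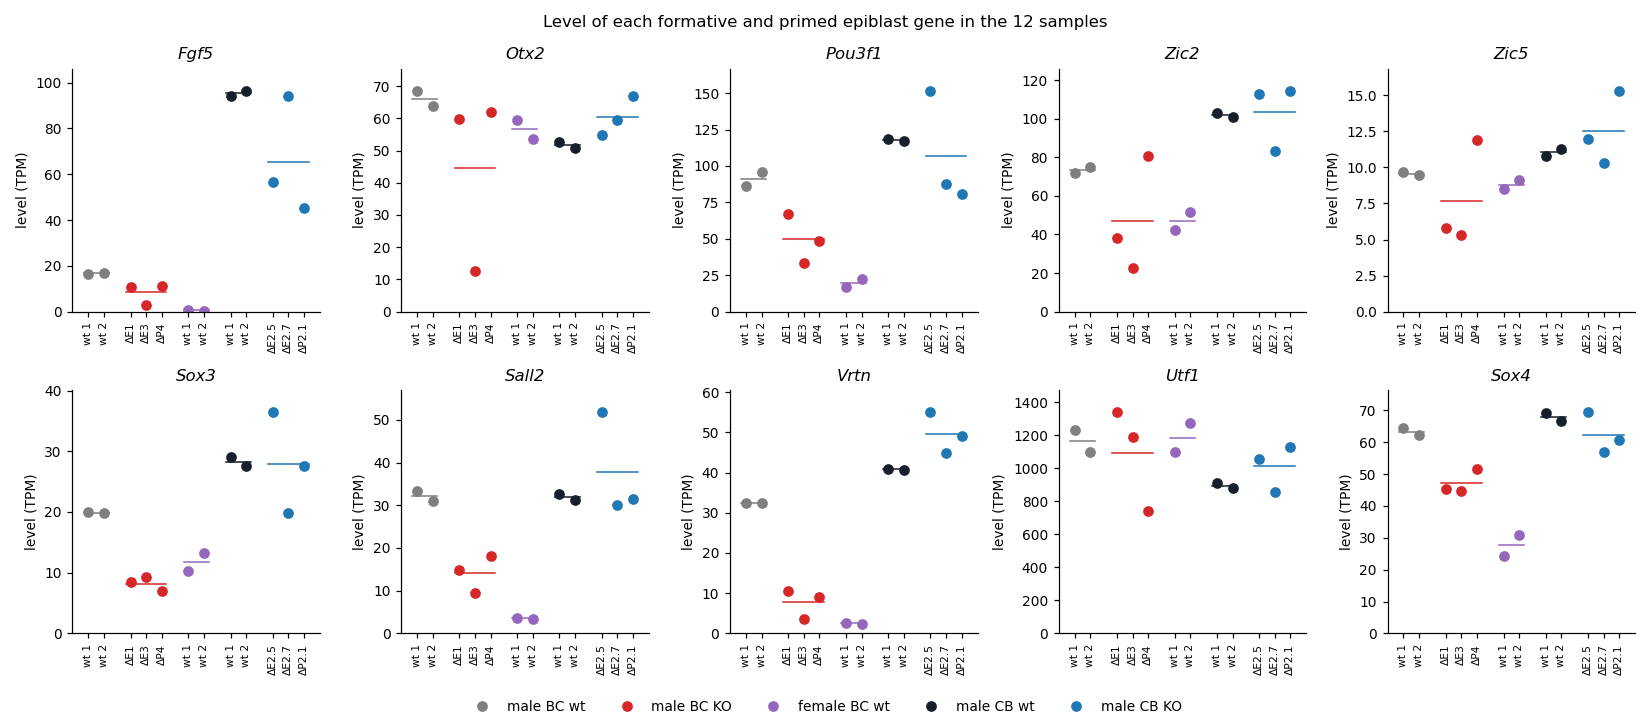
Level in TPM of each gene (vertical axis, from 0) in the 12 samples (horizontal axis), coloured by group, with a line at the group mean. The CB wt samples sit far above BC wt for *Fgf5*, the BC KO clones sit below both BC wt samples for *Vrtn*, *Sall2* and *Sox3*, and the female samples are lowest for *Fgf5*, *Sall2* and *Vrtn*.

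The crosses were first compared in wt cells. *Fgf5* was at 16.4 and 17.0 TPM in BC wt and at 94.3 and 96.5 TPM in CB wt, a ratio of 5.71 between the means. It was the only one of the 10 that was called, with a log2 fold change of 2.45 and a standard error of 0.05 (adjusted p = 6.3e-07, edgeR quasi-likelihood test, Benjamini-Hochberg over all genes). Calls here need an FDR under 0.05 together with 1.5-fold or more, which held for 34.5% of the 13827 genes tested, so the lines differ widely and 1 of 10 is below that share. *Zic2* was at 71.8 and 74.9 TPM in BC wt and 102.9 and 101 TPM in CB wt, and *Sox3* at 19.98 and 19.75 TPM against 29.1 and 27.5 TPM. Both passed the FDR of edgeR (adjusted p = 0.000395 and 0.000516) without reaching 1.5-fold, as did *Pou3f1* and *Vrtn* above BC wt and *Otx2* and *Utf1* below it. *Zic5*, *Sall2* and *Sox4* did not pass (edgeR adjusted p = 0.0746, 0.248 and 0.474). With all 12 samples in the fit *Fgf5* was still called (edgeR adjusted p = 0.00351). None of the others passed there, with edgeR adjusted p from 0.148 for *Utf1* to 0.884 for *Sox4*. Only 1 line of each cross was sampled, so cross and line, including the transgene, cannot be told apart.

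In BC cells, *Vrtn*, *Sox3* and *Sall2* had the most negative log2 fold changes of the 10 upon *Kdm6a* KO. *Vrtn* was at 32.5 and 32.3 TPM in wt and at 10.6, 3.65 and 8.98 TPM in ΔE1, ΔE3 and ΔP4, a log2 fold change of -2.11 (standard error 0.38). *Sox3* was at 19.98 and 19.75 TPM in wt and at 8.47, 9.24 and 6.90 TPM in the clones, a log2 fold change of -1.31 (standard error 0.19). *Sall2* was at 33.3 and 30.9 TPM in wt and at 14.9, 9.57 and 18.2 TPM in the clones, a log2 fold change of -1.22 (standard error 0.23). For each of these the clones and the wt samples did not overlap. The log2 fold change was negative for all 10 genes, with a median of -0.81 beside 0.01 over all genes tested. The value of *Utf1*, -0.13, turned to 0.0989 without ΔP4.

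None of the 10 was called by the test of edgeR in this comparison, which called only 4 of 13804 genes (0.0290%). The adjusted p was 0.217 for *Sox3*, 0.292 for *Vrtn* and 0.301 for *Sall2*. With ΔE1 and ΔE3 averaged, as they share 1 editing event, edgeR called *Vrtn* alone of the 10 (log2 fold change of -2.06, adjusted p = 0.0114). At an unadjusted p under 0.05, 5 genes were lower (*Pou3f1*, *Sox3*, *Sall2*, *Vrtn* and *Sox4*) and 0 higher, against 4.49% of all genes tested that were lower. DESeq2, run on the same counts, called 4 of the 10 as lower (0.761% of all genes), with adjusted p-values of 2.4e-05 for *Vrtn*, 1.1e-06 for *Sox3*, 0.000491 for *Sall2* and 0.0495 for *Pou3f1*. For 7 genes, namely *Fgf5*, *Otx2*, *Pou3f1*, *Sox3*, *Sall2*, *Vrtn* and *Sox4*, all 3 clones lay below both wt samples, which held for 10.9% of the genes tested.

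The other genes varied between the BC clones. *Pou3f1* was at 86.4 and 95.9 TPM in wt and at 67.2, 33.3 and 48.2 TPM in ΔE1, ΔE3 and ΔP4. *Sox4* was at 64.4 and 62.1 TPM in wt and within a narrow range of 44.7 to 51.6 TPM in the clones. *Fgf5* was at 16.4 and 17.0 TPM in wt and at 10.9, 3.03 and 11.2 TPM in the clones. *Otx2* had 68.6 and 63.7 TPM in wt, 59.7 and 61.9 TPM in ΔE1 and ΔP4, and 12.7 TPM in ΔE3. Thus ΔE3 alone was far below wt for *Otx2*, and without it the log2 fold change of *Otx2* went from -0.62 to -0.18, and that of *Fgf5* from -1.05 to -0.65. *Zic2* was at 71.8 and 74.9 TPM in wt, 37.9 and 22.5 TPM in ΔE1 and ΔE3 and 80.8 TPM in ΔP4. *Zic5* was at 9.70 and 9.45 TPM in wt, 5.83 and 5.29 TPM in ΔE1 and ΔE3 and 11.9 TPM in ΔP4. Both *Zic* genes were thus below wt in the exonic clones, which share 1 editing event, and above wt in the promoter clone, so that the groups overlapped. *Utf1* was at 1235 and 1102 TPM in wt and at 1340, 1193 and 744 TPM in the clones, and was lower in ΔP4 only.

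Each clone was then compared with the wt of its cross on its own, in a fit over all 12 samples in which the spread came from the 3 pairs of wt replicates. A lone clone is assumed there to vary as wt replicates do, so the p-values compare that library with wt rather than the deletion. In ΔE1 6 of the 10 genes were called lower (5.09% of 14667 genes), in ΔE3 8 (10.6%) and in ΔP4 6 (4.72%), and 0 were called higher. *Fgf5*, *Sox3*, *Sall2* and *Vrtn* were called lower in all 3 clones, against 0.907% of all genes. For *Vrtn* the log2 fold change was -1.63 in ΔE1, -3.16 in ΔE3 and -1.94 in ΔP4 (edgeR adjusted p = 1.7e-06, 2.7e-08 and 7.7e-07). For *Sox3* it was -1.25, -1.12 and -1.62, and here ΔE3 was not the lowest. For *Sall2* it was -1.12, -1.76 and -0.91, and for *Fgf5* -0.64, -2.48 and -0.67.

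The remaining calls were made in part of the BC clones. *Zic2* and *Zic5* were called lower in ΔE1 and ΔE3, with log2 fold changes of -0.97 and -1.71 for *Zic2*, and of -0.73 and -0.87 for *Zic5*. In ΔP4 the values were 0.05 and 0.23. *Pou3f1* was called in ΔE3 (-1.47) and ΔP4 (-1.01), while ΔE1 (-0.46, edgeR adjusted p = 0.0345) did not reach 1.5-fold. *Otx2* was called in ΔE3 alone (-2.39, edgeR adjusted p = 1.6e-07) and *Utf1* in ΔP4 alone (-0.74, edgeR adjusted p = 0.000406). *Sox4* changed by -0.50, -0.51 and -0.39, passed the FDR in each clone (edgeR adjusted p = 0.00919, 0.00492 and 0.0218) and never reached 1.5-fold. DESeq2 in the same design called as many of the 10 in every clone.

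**Figure D2:**
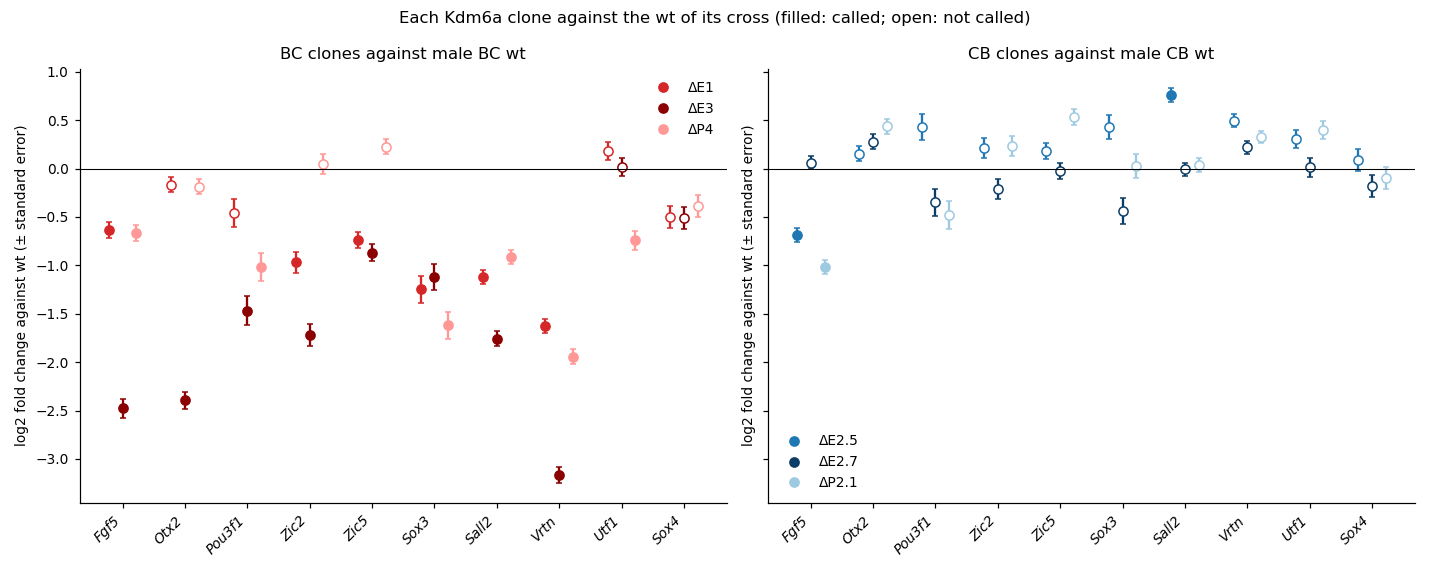
Log2 fold change (vertical axis, with the standard error of the edgeR fit) of each gene (horizontal axis) in each clone against the wt of its cross, BC left and CB right. Filled points were called and open points were not. In BC nearly all points lie below 0 and ΔE3 is the lowest for 8 genes, and in CB the points scatter around 0, with calls for *Fgf5* in ΔE2.5 and ΔP2.1 and for *Sall2* in ΔE2.5 (0.76).

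In CB cells these 3 genes were not lower in every clone. *Vrtn* was at 41.0 and 40.5 TPM in wt and at 55.0, 44.9 and 49.0 TPM in ΔE2.5, ΔE2.7 and ΔP2.1, so every clone was above both wt samples, with a log2 fold change of 0.36 (standard error 0.10, edgeR adjusted p = 0.172). *Otx2* was likewise above wt in every clone, at 55.0, 59.3 and 67.0 TPM against 52.6 and 50.9 TPM (log2 fold change of 0.30, standard error 0.10, edgeR adjusted p = 0.200). *Sox3* was at 29.1 and 27.5 TPM in wt and at 36.4, 19.8 and 27.6 TPM in the clones, and *Sall2* at 32.7 and 31.2 TPM in wt and at 51.7, 30.1 and 31.4 TPM. In both the clones lay on either side of wt.

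None of the 10 was called, and edgeR called 0 of 13800 genes in CB (0%). At an unadjusted p under 0.05, 2 genes (*Otx2* and *Vrtn*) were higher and 0 lower, where 10.0% of all genes were higher. DESeq2 called 0 of the 10 and 3.63% of all genes. For these 2 genes all clones lay above both wt samples, as they did for 14.7% of the genes tested. The median log2 fold change of the 10 was 0.18 beside 0.01 over all genes. In the fit for each clone it was 0.26 in ΔE2.5, -0.02 in ΔE2.7 and 0.13 in ΔP2.1. *Pou3f1* was at 118 and 117 TPM in wt and at 152, 87.7 and 80.8 TPM in the clones. *Zic2* was at 102.9 and 101 TPM in wt and at 113, 83.1 and 115 TPM, and *Zic5* at 10.8 and 11.3 TPM in wt and at 11.97, 10.3 and 15.3 TPM. *Sox4* was at 69.4 and 66.8 TPM in wt and at 69.4, 56.8 and 60.8 TPM in the clones, and *Utf1* at 910 and 883 TPM in wt and at 1060, 856 and 1131 TPM.

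*Fgf5* differed between the CB clones. Against 94.3 and 96.5 TPM in wt it had 56.7 TPM in ΔE2.5 and 45.2 TPM in ΔP2.1, and 94.3 TPM, the wt level, in ΔE2.7. In the fit for each clone *Fgf5* was called lower in ΔE2.5 (log2 fold change of -0.69, edgeR adjusted p = 6.3e-05) and in ΔP2.1 (-1.02, edgeR adjusted p = 2.6e-05), and the value in ΔE2.7 was 0.06. The other call was *Sall2*, which was higher in ΔE2.5 (0.76, edgeR adjusted p = 2.4e-05). For the 8 genes without a call the log2 fold changes over the 3 clones were 0.15 to 0.43 for *Otx2*, 0.22 to 0.50 for *Vrtn*, 0.01 to 0.40 for *Utf1*, -0.03 to 0.54 for *Zic5*, -0.22 to 0.23 for *Zic2*, -0.48 to 0.43 for *Pou3f1*, -0.44 to 0.43 for *Sox3* and -0.18 to 0.09 for *Sox4*. In all, 2 of the 10 were called in ΔE2.5 (16.7% of all genes), 0 in ΔE2.7 (15.2%) and 1 in ΔP2.1 (9.95%), shares close to or below those of all genes. Taken over the 3 clones, *Fgf5* had a log2 fold change of -0.46 (standard error 0.31, edgeR adjusted p = 0.429), which was -0.84 without ΔE2.7 and -0.25 without ΔP2.1.

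The difference between the crosses in the KO effect was tested in 1 fit of the 10 male samples. It was positive for all 10 genes, so that KO was higher relative to wt in CB than in BC, with a median of 0.82 beside -0.01 over all genes. For *Vrtn* the difference was 2.46 on the log2 scale (standard error 0.47, edgeR adjusted p = 0.0971), for *Sall2* 1.53 (standard error 0.38, edgeR adjusted p = 0.130) and for *Sox3* 1.36 (standard error 0.33, edgeR adjusted p = 0.128). The difference was 0.84 for *Pou3f1*, 0.79 for *Zic2*, 0.62 for *Zic5*, 0.57 for *Fgf5*, 0.41 for *Sox4* and 0.38 for *Utf1*, with standard errors of 0.43, 0.54, 0.42, 0.65, 0.14 and 0.32. Single clones moved several of these. Without ΔE3 the difference was 0.18 for *Fgf5* and 0.46 for *Zic2*, and without ΔP4 it was 1.38 for *Zic2*, 1.05 for *Zic5* and 0.15 for *Utf1*. It was 0.20 for *Fgf5* without ΔE2.7 and 0.52 for *Pou3f1* without ΔE2.5. EdgeR called none of the 10, and 9 of 14297 genes in all (0.0630%). At an unadjusted p under 0.05 *Sox3*, *Sall2*, *Vrtn* and *Sox4* were higher (7.55% of all genes). DESeq2 called 3 of the 10, *Vrtn* (adjusted p = 4.3e-05), *Sall2* (0.00605) and *Sox3* (0.00694), against 1.40% of all genes that were called higher. Without ΔE3 the difference for *Vrtn* was 2.13 and was called by edgeR (adjusted p = 0.00464), as was that of 2.47 without ΔP2.1 (adjusted p = 0.0472). *Vrtn* and *Otx2* were below both wt samples in every BC clone and above both in every CB clone, as were 2.07% of the 13304 genes tested in both crosses. For *Otx2* the difference of 0.91 (standard error 0.68, edgeR adjusted p = 0.518) did not pass and rested largely on ΔE3, without which it was 0.47 (standard error 0.15, edgeR adjusted p = 0.171). ΔE1 and ΔP4 held 90.2% and 93.5% of the *Otx2* level of wt.

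**Figure D3:**
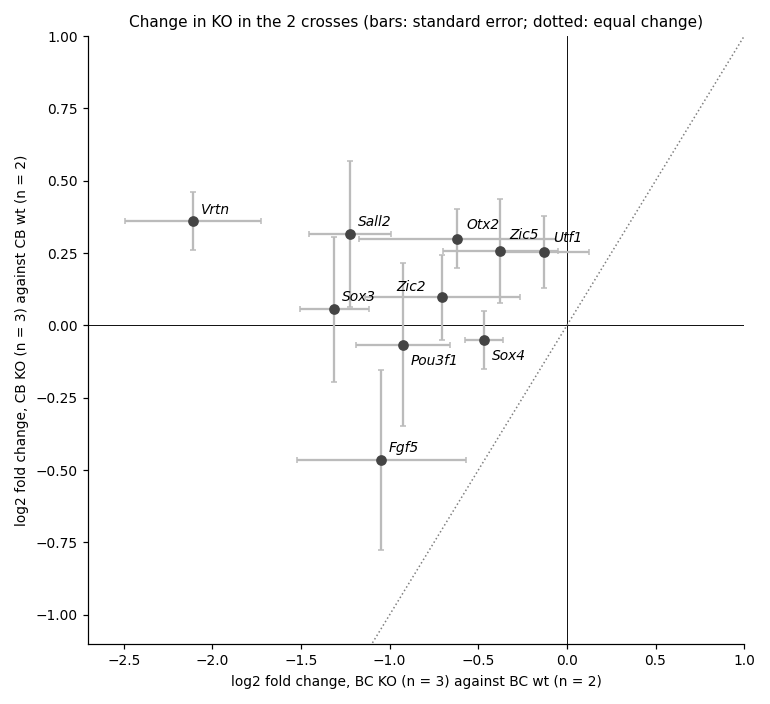
Log2 fold change between KO and wt of each gene in BC (horizontal axis) and in CB (vertical axis), with standard errors from the edgeR fits as bars. The dotted line marks an equal change. All 10 genes lie left of 0 and above the dotted line, with *Vrtn* farthest from it and *Utf1* and *Sox4* closest to it.

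The third wt line, female BC, had lower levels of most of these genes than male BC wt. *Fgf5* was nearly absent, with 0.54 and 0.45 TPM against 16.4 and 17.0 TPM, a log2 fold change of -5.11 (standard error 0.13, edgeR adjusted p = 3.4e-10). *Vrtn* was at 2.55 and 2.42 TPM (-3.76, edgeR adjusted p = 3.1e-10) and *Sall2* at 3.63 and 3.46 TPM (-3.23, edgeR adjusted p = 3.1e-10), against 32.5 and 32.3 TPM and 33.3 and 30.9 TPM in male cells. *Pou3f1* (16.7 and 22.7 TPM), *Sox4* (24.4 and 30.9 TPM), *Sox3* (10.3 and 13.3 TPM) and *Zic2* (42.4 and 51.6 TPM) were called lower as well. These are 7 of the 10, against 19.9% of 14049 genes called lower. *Zic2* was not called with all 12 samples in the fit (edgeR adjusted p = 0.175). Without the first female replicate its log2 fold change was -0.55, short of 1.5-fold. *Zic5* with 8.51 and 9.11 TPM, *Otx2* with 59.5 and 53.7 TPM and *Utf1* with 1099 and 1274 TPM were not called. The order of levels in female cells was therefore another, with *Otx2* and *Zic2* next after *Utf1*, and with *Sall2*, *Vrtn* and *Fgf5* last. This is 1 line of each sex, so sex and line cannot be told apart, and the male wt samples are the same as in the KO comparison. Among the male BC clones, the levels of *Vrtn* and *Fgf5* in ΔE3 (3.65 and 3.03 TPM) were the closest to those of the female cells.

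Other genes of the same state were described with a list of 18, which includes the de novo DNA methyltransferases. In BC KO 0 of the 18 were called by edgeR, 9 were lower and 0 higher at an unadjusted p under 0.05 (4.49% of all genes were lower), and DESeq2 called 2 as lower (0.761% of all genes). The median log2 fold change of the list was -0.44. *Dnmt3a* was at 159 and 142 TPM in wt and at 83.5, 69.8 and 73.2 TPM in the clones (log2 fold change of -1.03, edgeR adjusted p = 0.117). *Dnmt3b*, which marks the formative epiblast, was at 394 and 386 TPM in wt and at 273, 142 and 194 TPM (-0.98, edgeR adjusted p = 0.339). *Sox11* and *Lin28b*, which blocks the processing of let-7 miRNAs, had log2 fold changes of -0.50 and -0.44. In CB KO 1 of the 18 was lower (*Cldn6*, a tight junction gene, -0.78) and 3 were higher at an unadjusted p under 0.05, against 10.5% of all genes that were lower and 10.0% that were higher, with a median of 0.11. DESeq2 gave adjusted p = 1.4e-11 for *Cldn6* and 0.0128 for *Foxd3* (log2 fold change of 0.85), where it called 3.63% of all genes. *Dnmt3a* was at 104 and 102 TPM in CB wt and at 107, 62.2 and 126 TPM in the clones. Of the same list 13 were called lower (19.9% of all genes) and 0 higher in female against male BC wt, with *Dnmt3b* at 116 and 117 TPM. For the difference between crosses 6 of the 18 were higher (7.55% of all genes) and 0 lower at an unadjusted p under 0.05 in the edgeR fit.

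Most naive genes had values of the opposite sign in BC, where 13 of 14 had a positive log2 fold change and *Nr5a2* had -0.34. Of the 14 genes 0 were called by edgeR in BC KO, 9 were higher and 0 lower at an unadjusted p under 0.05 (6.56% of all genes were higher), and DESeq2 called 6 as higher (1.12% of all genes), with a median log2 fold change of 0.63. *Zfp42* (REX1) was at 297 and 282 TPM in wt and at 422, 513 and 415 TPM in ΔE1, ΔE3 and ΔP4, and *Tbx3* at 7.45 and 6.54 TPM in wt and at 14.3, 24.9 and 13.3 TPM. *Klf4*, one of the reprogramming factors, was at 58.1 and 54.3 TPM in wt and at 96.5, 141 and 88.2 TPM, and *Nanog* at 201 and 228 TPM in wt and at 305, 479 and 372 TPM. The median log2 fold change of the 14 was 0.92 in ΔE3, 0.44 in ΔE1 and 0.53 in ΔP4, although *Dppa3* was lowest in ΔE3 (-0.32) and *Tcl1* was higher in ΔP4. ΔE3 also had the lowest *Fgf5*, *Otx2*, *Pou3f1*, *Sall2* and *Vrtn* of the BC clones. In the fit for each clone 11 of the 14 were called higher and 0 lower in ΔE3, 3 higher and 1 lower in ΔE1, and 6 higher and 1 lower in ΔP4. The genes called lower were *Nr5a2* in ΔE1 (-0.66) and *Gbx2* in ΔP4 (-0.85). Of all genes 8.93% were called higher in ΔE3, 5.72% in ΔE1 and 8.87% in ΔP4. Among the CB clones 6 of the 14 were called higher and 0 lower in ΔE2.7 (6.22% of all genes were higher), where none of the 10 genes was called. In ΔE2.5 2 were higher (5.82% of all genes) and 2 lower (10.9%), and in ΔP2.1 2 were higher (3.47%) and 0 lower. In CB KO 3 of the 14 were higher at an unadjusted p under 0.05 (*Nr0b1*, *Klf2* and *Nr5a2*), against 10.0% of all genes, with a median of 0.29. DESeq2 gave adjusted p = 0.0282 for *Klf2* (log2 fold change of 0.78), and 0.00454 for *Nr0b1* (0.48), which did not reach 1.5-fold. In female against male BC wt 10 were called higher (24.5% of all genes) and 2 lower (19.9%), with *Tbx3* at 151 and 151 TPM and *Klf4* at 590 and 598 TPM.

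In CB cells several primitive streak and mesendoderm genes, which are induced as primed cells leave pluripotency, were high or low together with *Fgf5*. Of 10 such genes 9 were tested between the wt lines, and all 9 were called higher in CB wt than in BC wt, as were 19.8% of all genes. This was not particular to mesendoderm genes. Of the trophoblast genes 4 of 4 tested were called higher as well, of the feeder markers 6 of 8 (1 lower) and of the primitive endoderm genes 3 of 7 (0 lower). Of the neural genes 1 of 8 was called higher and 4 lower, beside 2037 of 13827 genes that were lower. *T* (brachyury) was at 119 and 117 TPM in CB wt against 8.66 and 7.89 TPM in BC wt, and *Cer1*, a Nodal inhibitor, at 13.8 and 12.6 TPM against 0.533 and 0.597 TPM. In the CB clones *T* was at 35.2 TPM in ΔE2.5 and 26.0 TPM in ΔP2.1 and at 196 TPM in ΔE2.7. *Fgf8*, a signal of the streak from the list of 18, was at 83.6 and 87.1 TPM in CB wt, at 11.2 TPM in ΔE2.5, 9.63 TPM in ΔP2.1 and 102 TPM in ΔE2.7. *T* and *Fgf8* were thus low in the clones with low *Fgf5* and above wt in the clone with *Fgf5* at the wt level, where *Cer1* was at 9.47 TPM. Of the 10 mesendoderm genes 9 were called lower and 0 higher in ΔE2.5, 8 lower and 0 higher in ΔP2.1, and 1 lower and 6 higher in ΔE2.7. Not every gene went with *Fgf5*, and an association was not tested. In ΔP2.1 *Wnt3* (log2 fold change of 0.05) and *Evx1* (-0.05) were near wt, and in ΔE2.7 *Foxa2* was lower (-0.98). Of all genes 10.9% were called lower in ΔE2.5 and 6.48% in ΔP2.1, and in ΔE2.7 8.95% were called lower and 6.22% higher. Over the 3 CB clones 1 of the 10 (*Foxa2*, an endoderm factor, -1.60, DESeq2 adjusted p = 0.0178) was lower and 0 higher at an unadjusted p under 0.05, against 10.5% of all genes that were lower. In BC KO 2 of 6 tested were lower at that level (4.49% of all genes), *T* and *Eomes*, with *T* at 5.38, 3.54 and 4.14 TPM in ΔE1, ΔE3 and ΔP4.

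**Figure D4:**
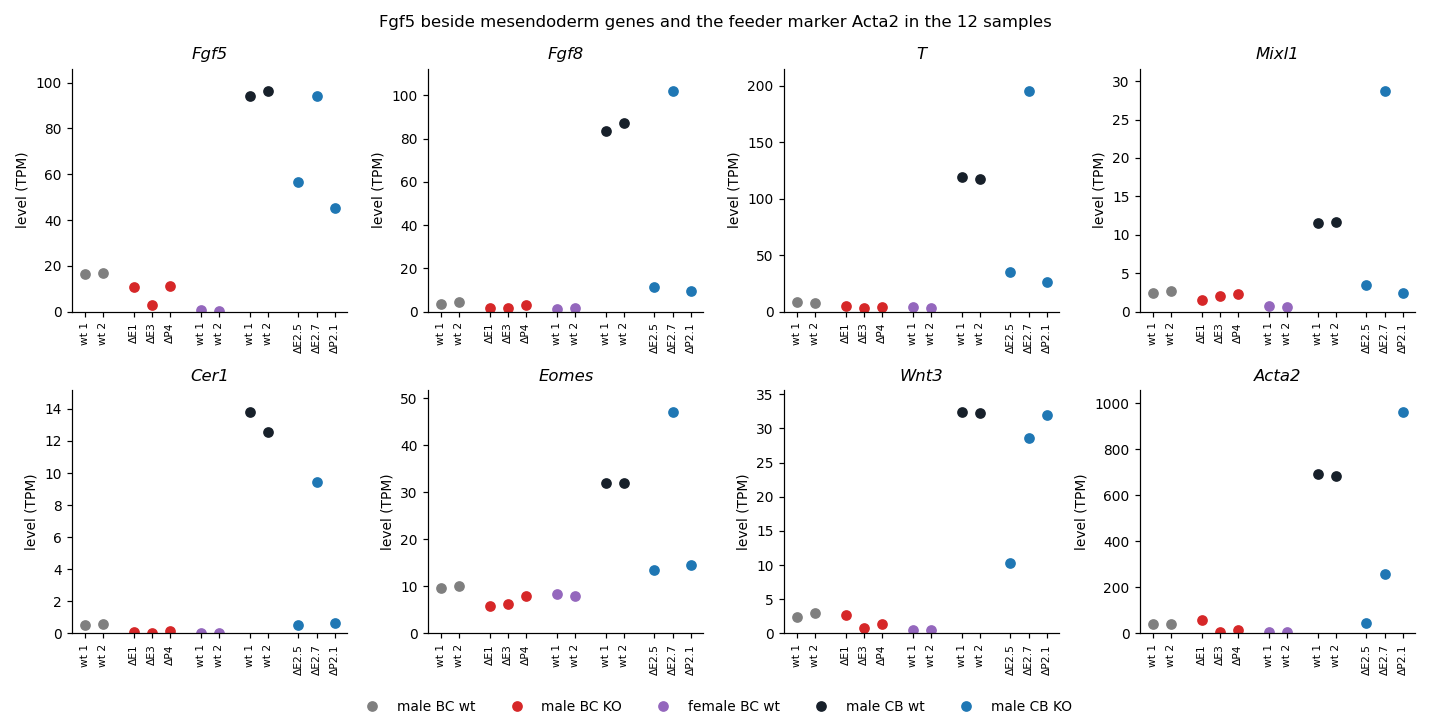
Level in TPM (vertical axis, from 0) of *Fgf5*, of 6 streak and mesendoderm genes and of the feeder marker *Acta2* in the 12 samples (horizontal axis), coloured by group. In CB, *Fgf5*, *Fgf8*, *T*, *Mixl1*, *Cer1* and *Eomes* are low in ΔE2.5 and ΔP2.1 and higher in ΔE2.7, whereas *Acta2* is highest in ΔP2.1.

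Markers of the fibroblast feeders also differed between samples. The summed level of 9 such markers was 78.4 and 74.8 TPM in male BC wt, 84.0 TPM in ΔE1, 17.1 TPM in ΔE3, 36.6 TPM in ΔP4 and 80.0 and 78.2 TPM in female BC wt. The CB sums were 781 and 765 TPM for wt, and 73.4, 299 and 1094 TPM for ΔE2.5, ΔE2.7 and ΔP2.1. In male wt most of this was *Acta2* (smooth muscle actin), at 42.2 and 41.0 TPM in male BC wt and 692 and 683 TPM in CB wt, in ΔE3 and in female cells the most abundant was *Thy1*. The highest level in any sample was 960 TPM for *Acta2*, 102 TPM for *Col1a1*, 67.4 TPM for *Thy1*, 13.1 TPM for *Col3a1*, 4.77 TPM for *Dcn*, 4.30 TPM for *Pdgfrb*, 2.83 TPM for *Col1a2*, 1.28 TPM for *Postn* and 0.464 TPM for *Lum*. *Col1a1* was at 9.23 and 7.45 TPM in male BC wt, 2.42 TPM in ΔE3, 56.3 and 52.1 TPM in CB wt and 102 TPM in ΔP2.1. Within BC the sum was lowest in ΔE3, the clone with the lowest *Fgf5* and *Vrtn*, and it was above wt in ΔE1, where *Acta2* was at 58.5 TPM. Within CB the sum was high in ΔP2.1 and low in ΔE2.5, both with low *Fgf5*. Of these markers 2 of 6 tested were lower in BC KO at an unadjusted p under 0.05 (4.49% of all genes) and 1 of 8 in CB KO (10.5% of all genes), with 0 higher in either. In the edgeR fit for each clone 3 of 8 tested were called lower in ΔE1 (*Col1a2*, *Dcn* and *Thy1*), 6 in ΔE3, 5 in ΔP4, 7 in ΔE2.5 and 4 in ΔE2.7, with 0 higher, against 5.09%, 10.6%, 4.72%, 10.9% and 8.95% of all genes that were lower. In ΔP2.1 1 was lower (6.48% of all genes) and 2 higher (3.47%). Between the wt lines 6 of 8 tested were called higher in CB wt (19.8% of all genes). *Thy1* (log2 fold change of -0.62) was the 1 called lower, as were 2037 of 13827 genes, and *Col1a2* (-0.0028) was not called. The markers thus did not all follow the higher sum of CB wt, which was mostly *Acta2*. In female against male BC wt *Acta2* (log2 fold change of -3.29), *Col1a1* (-1.56), *Col1a2* (-2.41) and *Col3a1* (-4.56) were called lower (19.9% of all genes). *Thy1* (1.68) and *Pdgfrb* (2.21) were called higher (24.5%), so the similar sums of these lines hold different markers. The part of the feeder cells in the results was not tested.

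Fragments with a SNP, 8.10% to 10.1% of all fragments for BL6 and 7.84% to 9.81% for cast, gave the share of each gene read from the BL6 allele. Shares are given with exact 95% Clopper-Pearson intervals, which cover counting error only. Over 9934 autosomal genes with at least 20 such fragments in every sample, the median BL6 share was between 50.2% and 52.5% in the male samples and was 47.5% and 47.4% in the female ones. *Vrtn* had shares above this median in every male sample, with 56.7% (53.9 to 59.5) and 55.1% (52.2 to 57.9) in BC wt, 54.7%, 65.7% (57.0 to 73.7) and 57.4% in ΔE1, ΔE3 and ΔP4, and 54.9% to 59.3% in the CB samples. The fragments of both alleles were fewer in BC KO. BL6 fragments went from 693 and 652 in wt to 239, 88 and 178 in the clones, and cast fragments from 529 and 532 to 198, 46 and 132. *Fgf5* was read more from cast in both crosses, with a BL6 share of 34.97% and 38.9% in BC wt and 35.6% and 34.8% in CB wt. The share was thus low in both crosses, although the BL6 allele is maternal in BC and paternal in CB.

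Other genes had larger departures. *Otx2* had a BL6 share of 24.8% (22.3 to 27.4) and 21.7% (18.97 to 24.7) in male BC wt, 23.6% (19.7 to 27.8) and 25.3% (21.4 to 29.5) in CB wt and only 5.81% (4.61 to 7.22) and 6.35% (4.63 to 8.46) in female BC wt. In the CB clones it was 36.1%, 34.5% and 29.9%, above both wt samples in each. Of the 6 nearest genes with shares on chromosome 14, 5 had a lower BL6 share in both female samples than in both male BC wt samples, as had 58.3% of the 9934 autosomal genes and 60.6% of the 358 on this chromosome. The median over chromosome 14 was 43.8% and 43.5% in the female and 50.9% and 50.8% in the male BC wt samples. On one side of *Otx2* the female shares were 26.5% and 24.2% for *Atg14*, 16.6% and 16.4% for *Ktn1*, and 12.5% and 9.45% for *Peli2*, beside male shares of 51.9% and 52.4%, 33.3% and 34.3%, and 47.3% and 51.9%. On the other side they were 38.8% and 36.7% for *Ap5m1* and 37.8% and 33.3% for *Naa30*, beside 53.0% and 54% and 53.0% and 50.3% in the male samples. *Exoc5*, at 41.4% and 44.9% in the female and 50% and 37.5% in the male samples, overlapped.

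*Pou3f1* was read mostly from BL6 in male wt, with 70.3% and 71.0% in BC and 69.1% and 70.4% in CB, and from cast in the female line, with 37.9% and 32.8%. Among the KO clones the share was 58.4% in ΔE3, 60.3% in ΔP4 and 51.0% (44.6 to 57.3) in ΔP2.1, and 73.3%, 71.6% and 75.9% in ΔE1, ΔE2.5 and ΔE2.7. *Zic5* had few SNP fragments. It had 20 BL6 and 20 cast fragments in the first BC wt replicate and 13 and 27 in the second, but 0 BL6 fragments against 25 and 32 cast fragments in CB wt and against 57 and 58 in female BC wt. A count of 0 allows a BL6 share of up to 13.7% and 10.9% in the CB wt replicates. The same held for ΔE2.5 and ΔE2.7 with 0 of 23 fragments each, whereas ΔP2.1 had 16 BL6 and 17 cast fragments. *Zic2*, its neighbour, was read from both alleles in all samples, with a BL6 share of 43.4% and 45.7% in CB wt and 27.1% and 29.2% in female BC wt. *Sox3*, on the X chromosome, was read from the maternal allele in male cells, with 0 cast fragments in 4 of the 5 male BC samples and 3 of 54 in the other, and 0 BL6 fragments in the 5 CB samples.

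The test of the allele share between KO and wt called none of the 9 autosomal genes. In BC it called 0 of 10807 genes (0%), with 4.94% at an unadjusted p under 0.05, among them *Zic2* (log2 change of the BL6 to cast ratio of 0.53, standard error 0.22, edgeR unadjusted p = 0.0453, adjusted p = 0.843). In CB it called 0 of 10267 genes (0%), with 3.36% at an unadjusted p under 0.05, among them *Otx2* (0.64, standard error 0.16, edgeR unadjusted p = 0.0113, adjusted p = 0.991). For *Vrtn* the values were 0.13 in BC and 0.07 in CB, with standard errors of 0.16 and 0.11, and for *Sall2* 0.14 and 0.13, with standard errors of 0.14 and 0.11. *Fgf5* (-0.09 and -0.18), *Pou3f1* (-0.38 and -0.18), *Sox4* (-0.17 and -0.13) and *Utf1* (0.07 and -0.14) did not pass in BC or CB, nor did *Otx2* in BC (-0.20), *Zic2* in CB (0.12) or *Zic5* in BC (-0.40). *Zic5* in CB, with 0 BL6 fragments in wt, is given no value.

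**Figure D5:**
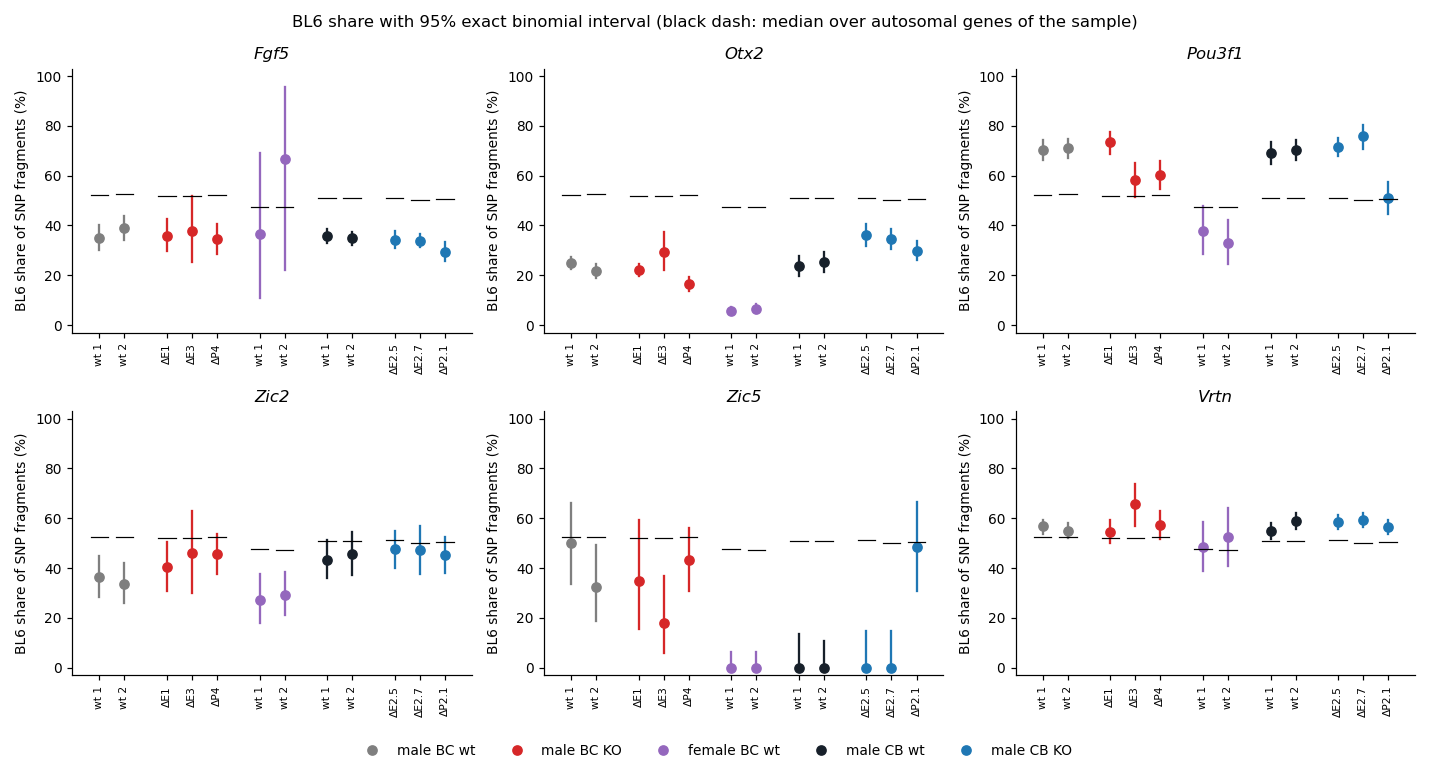
BL6 share of SNP fragments in percent (vertical axis) for 6 genes in the 12 samples (horizontal axis), as points with the exact 95% binomial interval, coloured by group. Black dashes mark the median over autosomal genes of the sample. *Otx2* lies below its dash in every sample and lowest in the female ones, *Pou3f1* is above it in male wt and below it in female wt, and *Zic5* is at 0 in female BC wt, CB wt, ΔE2.5 and ΔE2.7.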

How the data were processed

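The authors sequenced poly(A) RNA as single-end reads of 75 bases (TruSeq V2 kit, without strand), used TopHat for diploid expression, and Bowtie2 2.2.5 with the BL6 (mm10) and a SNP-substituted cast genome to assign reads over a SNP to an allele, for unique reads of high mapping quality. The counting program and annotation are not given in the sources used here. The deposited values used here are estimated counts of fragments per gene and sample, without normalization or pooling, for reads mapped to either genome, to the BL6 genome alone (an alternative) and with a BL6 or cast SNP. The values were rounded to whole numbers. No library was left out.

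TPM values were computed from these counts over all 24346 genes and the length of the longest RefSeq-matched transcript in GENCODE M21 (GRCm38, the same build as mm10). 23310 genes were matched by symbol, and the 1036 others were given the median length of 2283.5 bases. Comparisons used the quasi-likelihood test of edgeR 4.0.16 with TMM normalization and Benjamini-Hochberg adjustment over every gene that exceeded 1 TPM in any compared sample, which all 10 genes did. Genes were called at an FDR under 0.05 and at least 1.5-fold. DESeq2 1.42.0, the test of the study, was an alternative. *Sh3kbp1*, *Map3k15* and *Pdha1* were left out where BC clones entered. Alleles were compared where each sample of a cross had 20 or more SNP fragments on a gene, with samples as blocks. The tests were also run on simulated data, with results not given here. R 4.3.3 with limma 3.58.1 was used, and tables were handled in Python 3.11.15 with scipy 1.17.1. Sequences of guides are from the supplement of the study, and those of transcripts from GENCODE.

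The 10 genes and the other lists (18 further formative and primed, 14 naive, 4 core pluripotency, 10 neural, 10 mesendoderm, 9 primitive endoderm, 7 trophoblast and 9 feeder genes) were chosen with earlier results of these data known. All 10 genes are named in every comparison of expression. From the other lists, counts are given, with up to 4 genes per list and comparison by the smallest unadjusted p. *Pou5f1*, the neighbours of *Otx2*, the genes named in single clones, the feeder markers in single samples, the genes followed from one comparison into another, and those drawn beside *Fgf5*, were chosen after their values were seen. One shared sequence is not reported here.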

Additional observations from a re-analysis of the deposited data

Results flagged for a closer look

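For *Vrtn* and *Otx2* every BC clone lay below both BC wt samples and every CB clone above both CB wt samples, as for 2.07% of the 13304 genes tested in both crosses. Neither gene passed within BC (edgeR adjusted p = 0.292 and 0.720) or within CB (edgeR adjusted p = 0.172 and 0.200). With ΔE1 and ΔE3 averaged, *Vrtn* was called within BC (edgeR adjusted p = 0.0114) and *Otx2* was not (edgeR adjusted p = 0.358). DESeq2 called *Vrtn* within BC (adjusted p = 2.4e-05), gave it an adjusted p of 0.0496 within CB without 1.5-fold, and did not call *Otx2* in either cross. The difference between the crosses in the KO effect was tested in the edgeR fit of the 10 male samples. It was 2.46 on the log2 scale for *Vrtn* (edgeR adjusted p = 0.0971) and 0.91 for *Otx2* (edgeR adjusted p = 0.518), so neither passed at an FDR under 0.05. Without ΔE3 the difference for *Otx2* was 0.47 (standard error 0.15, edgeR adjusted p = 0.171). DESeq2 called the difference for *Vrtn*. No cause was tested.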

How the results depend on the processing

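The number of the 10 genes called stayed within 1.5 times the reported one in 102 of 108 combinations of a comparison and another setting. For a reported 0 this means that it stayed at 0. In BC KO, CB KO and the allele tests, where edgeR called almost no gene, an unchanged 0 shows little about stability. In BC KO the number rose from 0 to 4 with DESeq2, to 2 with all 12 samples in the fit (*Sox3* and *Vrtn*) and to 1 with ΔE1 and ΔE3 averaged (*Vrtn*). For the difference between crosses it rose from 0 to 3 with DESeq2. With each sample left out in turn it stayed at 0 in BC and CB KO and for the allele share, at 1 for CB against BC wt, between 6 and 7 for female against male wt, and between 0 and 1 for the difference between crosses, where *Vrtn* was called without ΔE3 or ΔP2.1. Where this left 1 sample in an arm, that sample was assumed to vary like the others. Counts that stayed at 0 show little here, as edgeR called 4 of 13804 genes in BC KO, 0 of 13800 in CB KO and 0 by allele share. With the replicate block, possible for the wt lines only, counts remained at 1 and 7. The labels do not say whether wt libraries with the same number share a batch. The correlation of same-numbered deviations was 0.150 and 0.168, and with 2 libraries per line it cannot settle this. No paired analysis was possible because KO and wt share no numbers. *Zic2* in female against male wt was not called with all 12 samples in the fit or without the first female replicate.

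Directions turned for values near 0: *Utf1* in female against male wt (0.0534 with library size alone, 0.0037 at a minimum of 5 TPM, and between -0.148 and 0.0785 with samples left out), and, with library size alone, *Sox3* (-0.0256) and *Sall2* (-0.0156) in ΔP2.1. With a sample left out, the value of *Utf1* in BC KO ranged from -0.314 to 0.0989, of *Pou3f1* in CB KO from -0.406 to 0.102 and of *Sox3* in CB KO from -0.18 to 0.242. Genes with the most similar pattern and promoter motifs were not run. Allele shares of *Zic5* rest on 20 to 65 SNP fragments per sample, so only large differences were detectable.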

Other observations

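Of 4 core pluripotency genes 0 passed an unadjusted p under 0.05 in BC in the edgeR fit, and in CB 3 were higher at that level, against 10.0% of all genes (*Pou5f1*, *Sall4* and *Sox2*, with *Sox2* at 372 and 379 TPM in wt and at 602, 629 and 484 TPM in ΔE2.5, ΔE2.7 and ΔP2.1). In CB DESeq2 gave adjusted p = 0.000398 for *Sox2* (log2 fold change of 0.69). It gave 0.0484 for *Pou5f1* and 0.0373 for *Sall4*, which did not reach 1.5-fold. Of 10 neural genes 8 were tested in BC, and 0 passed an unadjusted p under 0.05. Of the 6 tested in CB 1 was higher at that level, beside 10.0% of all genes, *Pax6*, an eye and forebrain factor, at 2.101 and 2.444 TPM in wt and at 7.84, 3.27 and 8.16 TPM in the clones (log2 fold change of 1.57, edgeR adjusted p = 0.170, DESeq2 adjusted p = 0.00727). In the edgeR fit for each clone *Sox1* was called lower in ΔE1 (-2.01) and ΔE2.7 (-0.95) and higher in ΔE3 (1.03) and ΔE2.5 (1.74). *Nes* was called lower in ΔE3 and ΔE2.7, *Hes5* and *Tubb3* in ΔE3, and *Msi1* in ΔP2.1. *Olig2* was called higher in ΔE3 and ΔE2.5, *Map2* in ΔE2.5, and *Pax6* in every CB clone. Shares over all genes are given below.

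Primitive endoderm genes had a summed level of 27.0 to 44.5 TPM over 9 genes in the 12 samples. In male wt the highest was *Dab2*, with means of 21.7 TPM in BC and 28.9 TPM in CB, and the next *Amn*, with 3.62 and 4.75 TPM. In the tests 1 was lower (*Dab2*) and 1 higher (*Gata4*) of 6 tested in BC at an unadjusted p under 0.05 (4.49% and 6.56% of all genes), and 0 of 7 in CB. In the edgeR fit for each clone 5 of 8 were called higher and 0 lower in ΔE3, among them *Gata6* (log2 fold change of 1.06) and *Gata4* (0.75). The counts were 2 higher and 2 lower in ΔE1, 2 higher and 1 lower in ΔP4, 1 higher and 0 lower in ΔE2.5, 1 higher and 1 lower in ΔE2.7, and 0 higher and 3 lower in ΔP2.1. Of all genes 5.72% were called higher and 5.09% lower in ΔE1, 8.93% and 10.6% in ΔE3, 8.87% and 4.72% in ΔP4, 5.82% and 10.9% in ΔE2.5, 6.22% and 8.95% in ΔE2.7, and 3.47% and 6.48% in ΔP2.1, which is also the background for the trophoblast calls. The summed level of 7 trophoblast genes was between 3.54 and 40.4 TPM, with *Tpbpa* and *Prl3d1*, 2 placental genes, at or near 0 in every sample, and 0 of 4 tested passed at that level in BC and in CB. In ΔE1 all 4 were called higher against BC wt, among them *Krt7* at 9.37 TPM against 1.79 and 1.83 TPM. In the other clones 2 of the 4 were called lower in ΔE3 (*Cdx2* and *Krt7*) and in ΔE2.5 (*Hand1* and *Krt7*), 1 was called higher in ΔP4 (*Krt7*) and in ΔE2.7 (*Cdx2*), and in ΔP2.1 *Krt7* was called lower and *Gata3* higher.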
